A study of Mus musculus with 8 samples.

Results

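The genes described here are 10 genes of serine synthesis and of the integrated stress response, read in mouse neural progenitor cultures after induction of the transcriptional repressor Bcl6. They were chosen by name, and all 10 were found by their gene symbol among the 14954 genes of the expression table. Phgdh, Psat1, Psph and Shmt2 make serine and pass its carbon on to glycine and folate. Atf4, Ddit3, Trib3, Asns, Chac1 and Sesn2 are the stress factor Atf4 and genes known to be under its control.

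All 8 libraries came from one mouse embryonic stem cell line, A2lox.Cre Bcl6, in which a tetracycline-inducible promoter drives Bcl6. The Bcl6-induced group had 4 cultures given doxycycline at 1 µg/ml for 24 h at day 12 of differentiation. The control group had 4 cultures given DMSO at the same day. Both groups carried the transgene, had been grown on irradiated mouse embryonic fibroblasts as stem cells, and had received cyclopamine, an inhibitor of hedgehog signalling, at 400 ng/ml during differentiation. There was no group of transgene-free cells with doxycycline, and effects of Bcl6 and of doxycycline cannot be told apart. The comparison asks how gene expression in such progenitors changes when Bcl6, a factor that drives neurogenesis, is switched on. Bcl6 itself was at 393, 422, 427 and 325 CPM (counts per 1000000 of each library's total) in Bcl6-induced libraries 1 to 4, against 6.61, 6.01, 7.12 and 6.21 CPM in control libraries 1 to 4.

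Serine is made from the glycolytic intermediate 3-phosphoglycerate in a chain of reactions. Phgdh oxidises it and is the committed enzyme, Psat1 adds the amino group from glutamate, and Psph removes the phosphate. Shmt2, in mitochondria, turns serine into glycine and loads the released carbon onto folate, which feeds nucleotide synthesis in dividing cells. In the integrated stress response, kinases that sense amino acid shortage, unfolded protein or other stress phosphorylate the initiation factor eIF2, which lowers general translation and raises translation of the Atf4 mRNA. Atf4 protein then switches on genes of amino acid supply, among them Asns and the serine enzymes, together with Ddit3, Trib3, Chac1 and Sesn2. Much of the control of Atf4 is thus at translation, and an mRNA level says little about the amount of the protein.

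The short DNA element through which Atf4 and its C/EBP partners act was searched as the letters TGATGNAA, on both strands, in promoter windows of RefSeq (mouse build GRCm38.p6, from 250 bases before to 50 bases after each start). It stood in 3 of the 10 genes, in 14 of 102 other genes listed below (13.7%) and in 3.97% of 32851 windows. A gene can have several windows and was counted if any of them held the letters, so shares of genes and of windows are unlike. The 3 sites are shown with flanks to 30 bases, on the strand on which the element reads forward, with the element in capitals. They lie at chr2:152344028-152344057 (plus strand) for Trib3, at chr6:7693214-7693243 (minus strand) for Asns and at chr2:119351038-119351067 (minus strand) for Chac1. The Trib3 and Asns stretches overlap annotated exons (GENCODE M21), and the Chac1 stretch does not.
Trib3: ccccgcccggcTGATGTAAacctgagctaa
Asns: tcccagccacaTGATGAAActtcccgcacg
Chac1: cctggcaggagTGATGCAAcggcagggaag

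The windows of Phgdh and Psat1, the genes that fell after Bcl6 induction, held no TGATGNAA. Both held CCAAT, a common promoter element that stood in 37.4% of all windows. By gene it stood in 7 of the 10 and in 61 of the 102 other listed genes (59.8%). A stretch of 100 bases upstream of the RefSeq start of each is printed on the gene's strand with CCAAT in capitals, at chr3:98340090-98340189 (minus strand) for Phgdh and at chr19:15925090-15925189 (minus strand) for Psat1 in GRCm38.p6. In GENCODE M21 the Psat1 gene reaches further upstream, to position 15947337, and the Psat1 stretch lies inside that gene interval. The letters TTCNNNGAA, a core shared by sites of Bcl6 and of STAT factors, stood in 8.3% of windows. By gene they stood in 10 of the 102 other listed genes (9.8%) and among the 10 genes in Shmt2, which was not called. A match of letters is a description of the window and not evidence of binding, and no match says only that these letters are absent from it.
Phgdh: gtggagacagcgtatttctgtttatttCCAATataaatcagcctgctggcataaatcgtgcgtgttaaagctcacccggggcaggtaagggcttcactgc
Psat1: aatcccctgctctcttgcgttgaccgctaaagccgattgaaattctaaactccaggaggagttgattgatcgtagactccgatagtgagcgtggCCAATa

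After Bcl6 induction 2 of the 4 serine synthesis genes fell, the first enzymes of the chain, Phgdh and Psat1, and none rose. Of the 6 stress genes 1 rose, the pseudokinase Trib3, and none fell. The other 7 genes, Atf4 itself included, were not called. A gene was called at an adjusted p under 0.05 in limma fitted to log2 values over all 14954 genes, with Benjamini-Hochberg adjustment over all of them. Under that rule 6.81% of all genes were called, 4.55% higher and 2.26% lower in the Bcl6-induced libraries. The share called higher among called genes depended on the scaling of the libraries: 681 genes were higher and 338 lower with the authors' scaling, against 536 and 424 with median-of-ratios scaling and 501 and 474 with upper quartile scaling. The median log2 fold change (Bcl6-induced minus control) was -0.29 over the 4 serine genes, 0.11 over the 6 stress genes and 0.03 over all genes. The CPM ranges of the groups did not overlap for 4 of the 10 genes (Phgdh, Psat1, Trib3 and Sesn2), and for 17.1% of all genes. In the same libraries 6 of 12 radial glia markers fell and 7 of 10 neuron markers rose, and in bulk cultures fewer cells of a type and less RNA per cell cannot be told apart.

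**Figure D1:**
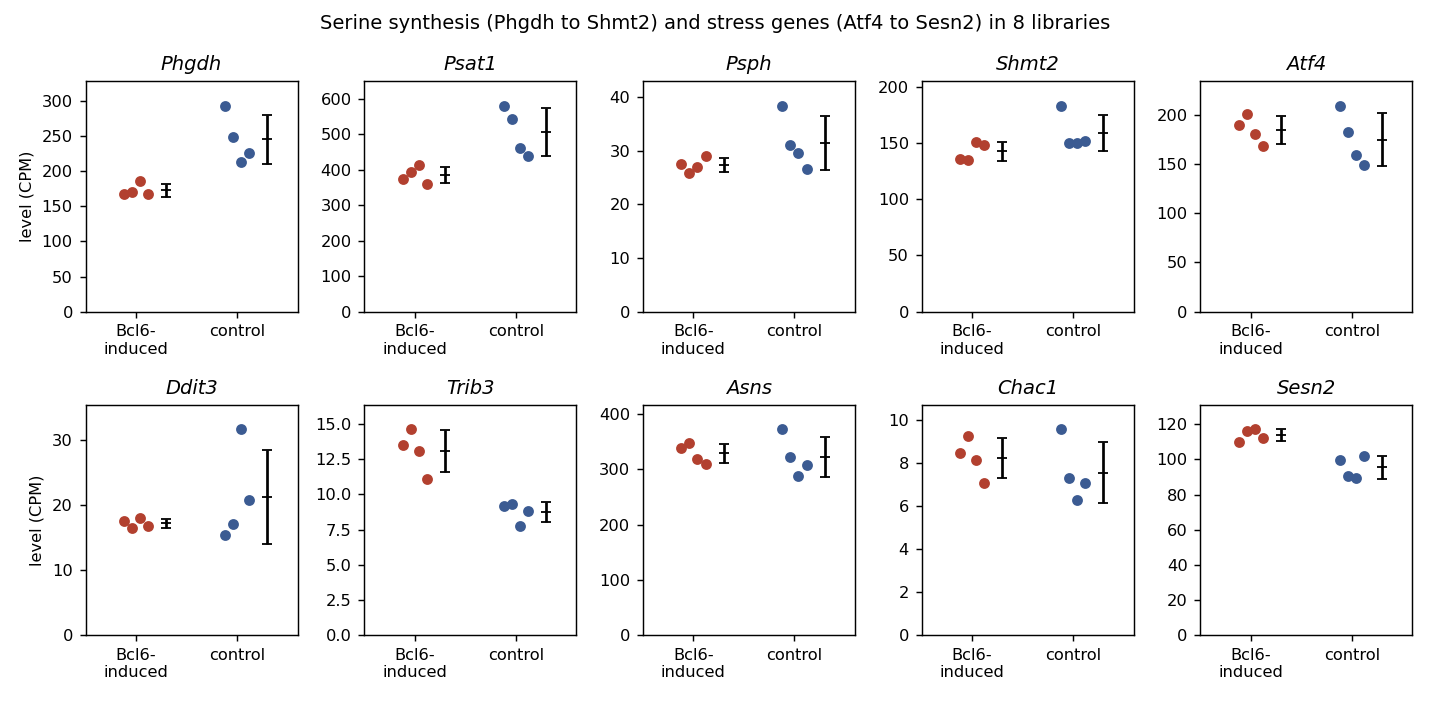
Level of each of the 10 genes in CPM (vertical axis from 0) in the 4 Bcl6-induced (red) and 4 control (blue) libraries, 1 point per library, with the mean and SD of each group beside the points. Phgdh and Psat1 lie lower, and Trib3 and Sesn2 higher, in all Bcl6-induced libraries than in any control library; for the other 6 genes the groups overlap.

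The libraries held 10331818 to 15022973 gene reads in the Bcl6-induced group and 9418862 to 9738172 in the control group, as recovered from the steps of the deposited values. Control library 1 stood apart from the other controls. Its deviation from the control mean ran against transcript length over 11856 genes (Spearman's rho -0.73, against 0.18, 0.52 and 0.52 in control libraries 2 to 4, as a description), and limma's array weights gave it 0.19, the lowest of the 8 libraries.

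Phgdh, the committed enzyme of serine synthesis (chr3:98313170-98339990, minus strand, mm10), fell most among the serine genes. Its level was 168, 170, 186 and 167 CPM in Bcl6-induced libraries 1 to 4, against 293, 248, 213 and 226 CPM in control libraries 1 to 4. Every Bcl6-induced library was below every control, and control library 1 was the highest of all. The means were 173 ± 9.17 CPM in Bcl6-induced and 245 ± 35.1 CPM in control libraries (SD, n = 4 each), from 1728 to 2521 reads per Bcl6-induced library and 2073 to 2757 reads per control library. The log2 fold change was -0.49 ± 0.10 (SE; 95% interval -0.71 to -0.28), so that the level fell by 29%, with an adjusted p of 0.015 in limma. Without control library 1 it was -0.40 with an adjusted p of 0.005. The call was lost without Bcl6-induced library 1 (adjusted p = 0.060), without Bcl6-induced library 2 (adjusted p = 0.055) and without control library 2 (adjusted p = 0.057), with log2 fold changes between -0.49 and -0.48.

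Phgdh has many near-identical copies in the mouse genome, nearly all processed pseudogenes. A search of its transcript against the GENCODE transcripts found 19 entries with at least 90% identity over at least 200 bases, and reads shared with them could be counted at either place or dropped. Of these, 2 were in the expression table, both at about 1 CPM. Gm7901 was at 0.914 ± 0.276 CPM in Bcl6-induced and 1.37 ± 0.537 CPM in control libraries (adjusted p = 0.43), and Gm9347 at 0.589 ± 0.175 and 1.32 ± 0.431 CPM (adjusted p = 0.069; SD, n = 4 each).

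Psat1, the aminotransferase of the next step (chr19:15904678-15947337, minus strand, mm10), fell as well. Psat1 was at 375, 395, 414 and 361 CPM in Bcl6-induced libraries 1 to 4 and at 581, 545, 461 and 439 CPM in control libraries 1 to 4. The groups did not overlap, and control libraries 1 and 2 were above controls 3 and 4. The means were 386 ± 23.4 CPM in Bcl6-induced and 507 ± 67.7 CPM in control libraries (SD, n = 4 each), a log2 fold change of -0.38 ± 0.10 (SE; 95% interval -0.59 to -0.17; adjusted p = 0.040 in limma) and a level that fell by 23.3%. Without control library 1 it was -0.31 (adjusted p = 0.031). The call was lost without Bcl6-induced library 1 (adjusted p = 0.13), 2 (0.10), 3 (0.059) or 4 (0.091) and without control library 2 (adjusted p = 0.12), and also when the variance was not fitted as a trend on expression (adjusted p = 0.080). A single processed pseudogene, Gm12611, passed the same search for copies of Psat1, and it was not analysed here.

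Psph, the phosphatase that ends the chain (chr5:129765558-129787449, minus strand, mm10), was at 27.6, 25.9, 27.0 and 29.1 CPM in Bcl6-induced libraries 1 to 4 and at 38.4, 31.0, 29.6 and 26.7 CPM in control libraries 1 to 4. The groups overlapped, with control library 1 again the highest. The means were 27.4 ± 1.32 CPM in Bcl6-induced and 31.4 ± 4.99 CPM in control libraries (SD, n = 4 each), and the log2 fold change of -0.19 (95% interval -0.43 to 0.06) did not pass the test (adjusted p = 0.34 in limma). It was -0.09 without control library 1. Exons of Psph overlap those of the chaperonin gene Cct6a on the other strand, and since the sources used here do not state whether reads were counted by strand, reads of the overlap may have been counted to either gene. Cct6a was at 529 ± 7.86 CPM in Bcl6-induced and 552 ± 56.7 CPM in control libraries (adjusted p = 0.72).

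Shmt2, the mitochondrial enzyme that splits serine into glycine and a carbon unit (chr10:127517123-127522444, minus strand, mm10), was at 136, 135, 151 and 148 CPM in Bcl6-induced libraries 1 to 4 and at 183, 150, 150 and 152 CPM in control libraries 1 to 4. Bcl6-induced libraries 1, 2 and 4 lay below all controls and library 3 among them, and control library 1 stood alone at the top. The means were 142 ± 8.35 CPM in Bcl6-induced and 159 ± 16.3 CPM in control libraries (SD, n = 4 each), with a log2 fold change of -0.15 (95% interval -0.34 to 0.03) and an adjusted p of 0.28 in limma. It was -0.08 without control library 1. After a correction for transcript length and GC content, Shmt2 was called lower (-0.22, adjusted p = 0.033). Its exons overlap Ndufa4l2 on the other strand, a gene at 8.43 ± 1.38 CPM in Bcl6-induced and 11 ± 1.65 CPM in control libraries (SD, n = 4 each).

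All 4 serine genes had a negative log2 fold change. The mean of their log2 levels, set against the mean of the controls, was -0.34, -0.34, -0.23 and -0.30 in Bcl6-induced libraries 1 to 4, against 0.25, 0.02, -0.12 and -0.15 in control libraries 1 to 4. The 4 Bcl6-induced libraries lay close together and all below the controls, while the controls were spread out, with library 1 the highest. This order of the controls was not particular to the serine genes. The same mean was 0.12, 0.02, -0.07 and -0.07 in control libraries 1 to 4 for the tRNA synthetase genes read below. It went the other way for the sestrin and mTORC1 genes, at -0.11, -0.01, 0.06 and 0.06.

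**Figure D2:**
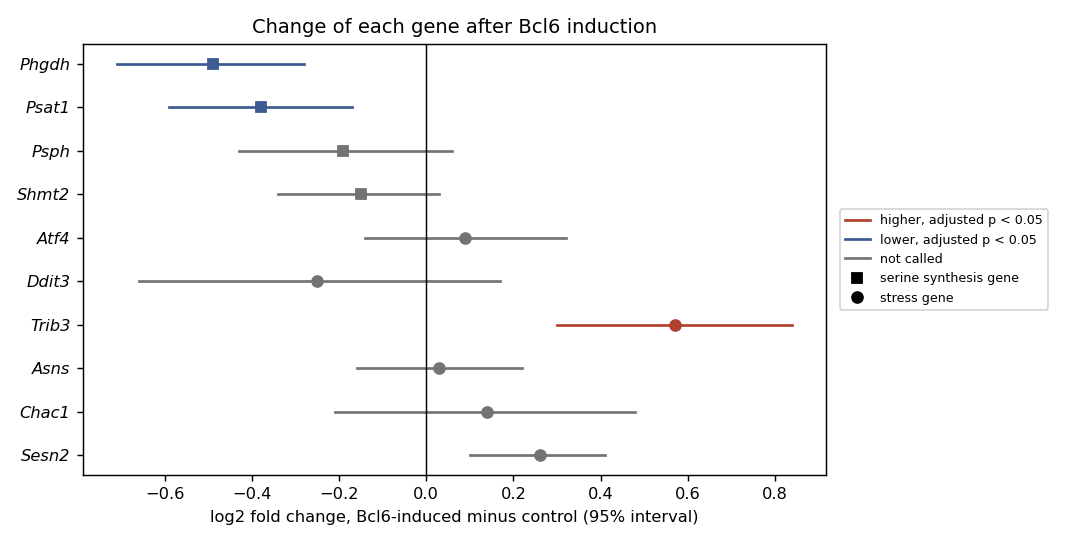
Log2 fold change (Bcl6-induced minus control, horizontal axis) of each gene with its 95% interval from limma, for serine synthesis genes (squares) and stress genes (circles), coloured by call. Phgdh (-0.49) and Psat1 (-0.38) lie left of 0 and Trib3 (0.57) right of it; the interval of Sesn2 (0.10 to 0.41) also leaves out 0, but its p adjusted over all genes was 0.0502.

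Atf4, the transcription factor at the head of the stress programme (chr15:80255184-80257541, plus strand, mm10), was not called. Its mRNA was at 189, 201, 180 and 168 CPM in Bcl6-induced libraries 1 to 4 and at 209, 182, 159 and 149 CPM in control libraries 1 to 4. The groups overlapped, with both the highest and the lowest level among the controls. The means were 185 ± 13.7 CPM in Bcl6-induced and 175 ± 26.4 CPM in control libraries (SD, n = 4 each), with a log2 fold change of 0.09 (95% interval -0.14 to 0.32; adjusted p = 0.65 in limma). It was 0.18 without control library 1, 0.02 without control library 4 and 0.20 with array weights, and was called in none of these (adjusted p = 0.17, 0.95 and 0.11 in limma).

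Trib3, a pseudokinase that is induced by Atf4 and Ddit3 and feeds back on them, rose (chr2:152337422-152344032, minus strand, mm10). Trib3 had 13.5, 14.6, 13.1 and 11.1 CPM in Bcl6-induced libraries 1 to 4 and 9.17, 9.32, 7.73 and 8.82 CPM in control libraries 1 to 4. All 4 Bcl6-induced libraries were above all 4 controls. The means were 13.1 ± 1.44 CPM in Bcl6-induced and 8.76 ± 0.719 CPM in control libraries (SD, n = 4 each), a 1.49-fold level with a log2 fold change of 0.57 ± 0.12 (SE; 95% interval 0.30 to 0.84; adjusted p = 0.022 in limma). This rests on 115 to 202 reads per Bcl6-induced library and 75 to 88 reads per control library, so Trib3 is one of the more weakly covered of the 10 genes. The log2 fold change stayed between 0.51 and 0.65 when any 1 library was left out. Without control library 1 it was 0.60 (adjusted p = 0.018). The call was lost without Bcl6-induced library 1 (adjusted p = 0.083), 2 (0.085) or 3 (0.055) and without control library 2 (adjusted p = 0.053).

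Ddit3, which encodes the stress factor CHOP (chr10:127290774-127296288, plus strand, mm10), was at 17.6, 16.5, 18 and 16.9 CPM in Bcl6-induced libraries 1 to 4 and at 15.4, 17.2, 31.7 and 20.9 CPM in control libraries 1 to 4. Control library 3 was the highest and control library 1 the lowest, with the Bcl6-induced libraries inside that range. The means were 17.3 ± 0.678 CPM in Bcl6-induced and 21.3 ± 7.27 CPM in control libraries (SD, n = 4 each), with a log2 fold change of -0.25 (95% interval -0.66 to 0.17; adjusted p = 0.45 in limma). The log2 fold change was -0.04 without control library 3. Ddit3 shares exonic bases with the tRNA synthetase gene Mars on the other strand, and Mars was also highest in control library 3 among all libraries, at 226, 231, 240 and 215 CPM in Bcl6-induced libraries 1 to 4 and 284, 250, 306 and 239 CPM in control libraries 1 to 4. The part of Mars in the Ddit3 values was not tested. A separate annotation entry of the same name overlaps Ddit3 on its own strand.

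Asns, asparagine synthetase and a classical Atf4 target (chr6:7675169-7693254, minus strand, mm10), was not called. It was at 338, 348, 319 and 310 CPM in Bcl6-induced libraries 1 to 4 and at 372, 323, 288 and 308 CPM in control libraries 1 to 4, so the Bcl6-induced libraries lay inside the range of the controls. The means were 329 ± 17.4 CPM in Bcl6-induced and 323 ± 36 CPM in control libraries (SD, n = 4 each), with a log2 fold change of 0.03 (95% interval -0.16 to 0.22; adjusted p = 0.86 in limma), whose sign turned with upper quartile scaling (-0.02) and without control library 3 (-0.02).

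Chac1, an enzyme that degrades glutathione and responds to Atf4 (chr2:119351229-119354381, plus strand, mm10), was the gene with the fewest reads, 73 to 127 per Bcl6-induced library and 61 to 90 per control library. Its level was 8.47, 9.27, 8.17 and 7.07 CPM in Bcl6-induced libraries 1 to 4 and 9.57, 7.31, 6.27 and 7.07 CPM in control libraries 1 to 4, with overlap. The means were 8.24 ± 0.911 CPM in Bcl6-induced and 7.55 ± 1.41 CPM in control libraries (SD, n = 4 each). The log2 fold change was 0.14 (95% interval -0.21 to 0.48; adjusted p = 0.64 in limma), an interval that leaves room for changes in either direction at this depth. It was 0.26 without control library 1 and 0.05 without control library 3 (adjusted p = 0.26 and 0.86 in limma).

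Sesn2, a sestrin that senses leucine and restrains the growth kinase complex mTORC1 (chr4:132492032-132510501, minus strand, mm10), was at 110, 116, 117 and 112 CPM in Bcl6-induced libraries 1 to 4 and at 99.8, 90.4, 89.4 and 102 CPM in control libraries 1 to 4. The groups did not overlap, although control library 4 came close. The means were 114 ± 3.25 CPM in Bcl6-induced and 95.3 ± 6.25 CPM in control libraries (SD, n = 4 each). The log2 fold change of 0.26 ± 0.07 (SE; 95% interval 0.10 to 0.41) narrowly missed the threshold in limma (adjusted p = 0.0502). Without control library 1 it was 0.28 and passed (adjusted p = 0.018), and without Bcl6-induced library 2 the adjusted p was 0.15.

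Leaving out 1 library at a time left between 0 and 4 of the 10 genes called, against 3 with all libraries. None was called in limma without Bcl6-induced library 1, Bcl6-induced library 2 or control library 2, where 2.06%, 2.34% and 2.4% of all genes were called, while 4 of the 10 had an unadjusted p under 0.05 in each case. Without Bcl6-induced library 3, 1 was called (4.34% of all genes), and without control library 1, 4 were called (11.3% of all genes).

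The gap between the serine genes and the stress genes was smaller in every Bcl6-induced library than in any control. The mean log2 level of the 4 serine genes minus that of the 6 stress genes was 1.33, 1.27, 1.46 and 1.51 in Bcl6-induced libraries 1 to 4, against 1.99, 1.88, 1.75 and 1.73 in control libraries 1 to 4. The highest Bcl6-induced value, in library 4, was below the lowest control value, with means of 1.39 ± 0.11 and 1.84 ± 0.12 (SD, n = 4 each) and a difference of -0.44 on the log2 scale, which lay between -0.48 and -0.39 when any 1 library was left out. This is a description with no test, since the genes were chosen with results of these data known. The gap is also not separate from the calls above, since Phgdh (-0.49), Psat1 (-0.38) and Trib3 (0.57) are part of it. The log2 fold changes of the other genes were smaller, from -0.25 for Ddit3 to 0.26 for Sesn2.

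Set against Atf4 in the same library, the pattern was the same for Phgdh and Psat1. It was tighter among the controls but not among the Bcl6-induced libraries. The log2 CPM of Phgdh minus that of Atf4 was -0.17, -0.24, 0.05 and -0.01 in Bcl6-induced libraries 1 to 4 and 0.49, 0.45, 0.42 and 0.60 in control libraries 1 to 4. That of Psat1 was 0.99, 0.98, 1.2 and 1.1 in Bcl6-induced libraries and 1.48, 1.58, 1.53 and 1.56 in control libraries. For both enzymes the groups were apart, and the 4 controls, which differed in their levels, were close together in this difference. That of Asns was 0.84, 0.79, 0.82 and 0.88 in Bcl6-induced libraries and 0.83, 0.83, 0.85 and 1.05 in control libraries, so the groups overlapped for this other gene of amino acid synthesis. They also overlapped for Psph (-2.95 to -2.53 in Bcl6-induced, -2.55 to -2.43 in control libraries) and Shmt2 (-0.58 to -0.19 and -0.28 to 0.02). Of the other stress genes, Trib3 was apart (-3.91 to -3.77 and -4.50 to -4.07), while Ddit3, Chac1 and Sesn2 overlapped. These differences include the unequal lengths of the transcripts and are read only between libraries.

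Levels of different genes were compared per kilobase of exon. In the Bcl6-induced libraries the order was Asns (120 ± 6.38 CPM per kb), Psat1 (90.8 ± 5.49), Atf4 (78.3 ± 5.8), Phgdh (69.5 ± 3.69), Shmt2 (45.8 ± 2.69) and Sesn2 (32.7 ± 0.936). Ddit3, Psph, Trib3 and Chac1 followed, between 10.1 and 5.04 CPM per kb. In the control libraries Psat1 (119 ± 15.9 CPM per kb), Asns (118 ± 13.2) and Phgdh (98.5 ± 14.1) led, ahead of Atf4 (74.1 ± 11.2), Shmt2 (51.1 ± 5.25) and Sesn2 (27.4 ± 1.8; SD, n = 4 each). Neighbours whose ranges over libraries overlapped were Psat1 with Atf4, Atf4 with Phgdh, Psph with Trib3 and Trib3 with Chac1 in the Bcl6-induced libraries, and Psat1 with Asns, Asns with Phgdh, Phgdh with Atf4 and Chac1 with Trib3 in the controls. The mean of Phgdh was below that of Atf4 in the Bcl6-induced libraries and above it in the controls, with overlapping ranges in both, and Trib3 was last in the controls and last but one in the Bcl6-induced libraries.

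Profiles over the 8 libraries were compared by the mean absolute difference of log2 values, each centred on its own mean, among 11869 genes. The closest to Phgdh were Eif1ax (0.046), Nudt7 (0.049) and 1110059E24Rik (0.054), all called lower, and Psat1 came at rank 12 (0.065). The closest to Trib3 were Rhou (0.053), Marveld2 (0.055) and Plekhf2 (0.062), all called higher, while Sesn2 came at rank 699 (0.170). The difference between the groups is part of each profile, so close profiles have like fold changes. The shared calls, and in part the rank of Psat1, thus follow from the ranking itself. Psph and Shmt2 stood at ranks 715 and 1108 from Phgdh, so of the other serine genes Psat1 was the nearest to Phgdh.

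Around these 10 genes, 129 other genes of the pathways were read by list, and 2 of them were called higher and 6 lower, with a median log2 fold change of 0.00. That is 6.2% of the 129, where 6.81% of all genes were called, a share near the background. The split was 0 higher and 6 lower with median-of-ratios scaling and 0 higher and 7 lower with upper quartile scaling, so that both higher calls were lost there, and 8 higher and 8 lower without control library 1. Without a variance trend only Stc2 of these genes was called, and with a replicate block only Mthfd1 and Pycr1. Of 25 genes of one-carbon and glycine metabolism 3 fell, none rose and 22 were not called (median log2 fold change -0.06). Mthfd1l, the mitochondrial enzyme that releases formate, was at 105 ± 6.42 CPM in Bcl6-induced and 129 ± 3.55 CPM in control libraries (log2 fold change -0.30, adjusted p = 0.025). Mthfd1, its cytosolic partner in the folate cycle, was at 344 ± 25.3 CPM in Bcl6-induced and 428 ± 30.7 CPM in control libraries (-0.32, adjusted p = 0.040; SD, n = 4 each). The call of Mthfd1l was lost without Bcl6-induced library 1, 2 or 4 or control library 2 (adjusted p up to 0.094). Mthfd1 stayed called without control library 1 or 4, but not without any other single library (adjusted p up to 0.11). Gart (256 and 248 CPM) and Atic (216 and 226 CPM), enzymes of purine synthesis that use folate carbon, were not called.

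Of 26 other genes known as Atf4 targets 2 fell, none rose and 24 were not called (median log2 fold change 0.03). The split depended on the fit: 3 rose and 3 fell without control library 1, 5 rose and 4 fell with array weights, and 1 rose and 6 fell after correction for length and GC content. At an unadjusted p under 0.05 in limma, 3 were higher and 6 lower. Stc2, a secreted glycoprotein, was at 18.9 ± 0.573 CPM in Bcl6-induced and 25 ± 1.71 CPM in control libraries (-0.40, adjusted p = 0.024), and Pycr1, which makes proline in mitochondria, at 40.1 ± 4.66 and 53.8 ± 5.82 CPM (-0.42, adjusted p = 0.039; SD, n = 4 each). Both stayed called without control library 1 or 3, and lost the call without any other single library (adjusted p up to 0.085 and 0.095). Nars (313 and 311 CPM) and Xpot (242 and 245 CPM), a tRNA synthetase and a tRNA exporter, were not called. Trib3 was thus higher, while Stc2 and Pycr1, like Phgdh and Psat1, were lower.

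Of 16 genes for the eIF2 kinases, phosphatase subunits and regulators 1 rose and none fell (median 0.02). Impact, a neuronal inhibitor of the amino acid sensor Gcn2, was at 271, 272, 271 and 220 CPM in Bcl6-induced libraries 1 to 4 and 189, 213, 219 and 201 CPM in control libraries 1 to 4 (log2 fold change 0.33, adjusted p = 0.046). The call was lost without Bcl6-induced library 1, 2 or 3 or control library 2 or 4 (adjusted p up to 0.15). It was also lost with median-of-ratios scaling (adjusted p = 0.078), with upper quartile scaling (0.079), without a variance trend (0.090) and with a replicate block (0.055). Its lowest Bcl6-induced library was just above its highest control. The eIF2 subunit gene Eif2s1 (228 and 231 CPM) and Gcn1 (named Gcn1l1 in the table; 226 and 197 CPM), an activator of Gcn2, were not called.

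None of 12 amino acid transporter genes was called in limma (5 at an unadjusted p under 0.05, and 1 called with limma-voom on recovered reads; median log2 fold change 0.07). Slc38a2, a carrier of small neutral amino acids, was at 374 ± 7.21 CPM in Bcl6-induced and 329 ± 34.6 CPM in control libraries (adjusted p = 0.19), and its relative Slc38a1 at 265 ± 8.42 and 224 ± 28.2 CPM (adjusted p = 0.12; SD, n = 4 each). Of 20 cytosolic tRNA synthetase genes, many of which Atf4 can induce, 1 rose and none fell (median -0.03). Aars, for alanine, was at 368 ± 20.2 CPM in Bcl6-induced and 304 ± 16 CPM in control libraries (0.27, adjusted p = 0.039), and stayed called without Bcl6-induced library 4 or control library 1 but not without any other single library (adjusted p up to 0.14). Its call was also lost with median-of-ratios scaling (adjusted p = 0.062), with upper quartile scaling (0.091), without a variance trend (0.079), with a replicate block (0.067) and after correction for length and GC content (log2 fold change 0.12, adjusted p = 0.41). Eprs (439 and 440 CPM) and Kars (379 and 418 CPM) were not called.

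Lists of other stress responses were read in the same way. Of 21 genes of endoplasmic reticulum folding and its unfolded protein response 1 fell and none rose (median 0.04). Hsp90b1, the chaperone GRP94, was at 510 ± 7.41 CPM in Bcl6-induced and 618 ± 46.3 CPM in control libraries (-0.27, adjusted p = 0.042), and stayed called without control library 1 or 3 but not without any other single library (adjusted p up to 0.14). Hspa5, the chaperone BiP, was at 601 ± 7.98 and 603 ± 52.2 CPM (adjusted p = 1) and Canx was not called (757 and 752 CPM). None of 10 genes of mitochondrial chaperones and proteases was called in limma (1 at an unadjusted p under 0.05, and 0 called with limma-voom; median -0.01), with Hspd1 at 793 CPM in Bcl6-induced and 799 CPM in control libraries and Hspa9 at 703 and 708 CPM. None of 11 sestrin and mTORC1 genes, Sesn2 included, was called in limma (5 at an unadjusted p under 0.05, and 1 called with limma-voom; median 0.08), with Sesn3 at 264 ± 8.45 CPM in Bcl6-induced and 327 ± 60.6 CPM in control libraries (adjusted p = 0.19) and Mtor at 171 and 161 CPM. Without control library 1, Sesn3 was called lower (-0.43, adjusted p = 0.0015).

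The Atf4 element letters stood in genes called in either direction and in genes not called. Among 102 of the other listed genes with a promoter window, 14 (13.7%) held TGATGNAA. Of the 17 listed genes with it, the 3 shown above included, 2 were called higher (Trib3 and Aars), 1 lower (Pycr1) and the others were not called, and their log2 fold changes ran between -0.42 and 0.57. Asns and Chac1, whose sites are shown above, were at 0.03 and 0.14.

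**Figure D3:**
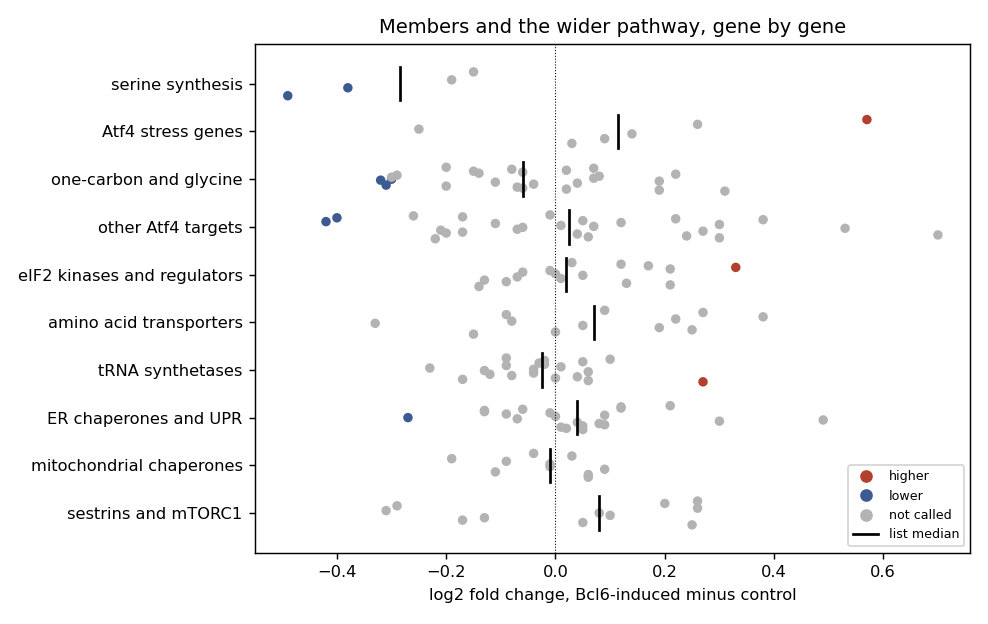
Log2 fold change (Bcl6-induced minus control, horizontal axis) of every measured gene of each list, 1 point per gene, red where higher, blue where lower and grey where not called, with the list median as a bar. The serine genes all lie below 0 (median -0.29), while the medians of the 8 wider lists lie between -0.06 and 0.08.

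Many but not all markers of cell types moved with the groups. Of 12 radial glia markers 6 fell and none rose (median log2 fold change -0.53), and their summed level was 1270 to 1610 CPM in Bcl6-induced and 1800 to 2240 CPM in control libraries. Hes5 was the one nearest to 0, at 0.2, 0.301, 6.06 and 6.12 CPM in Bcl6-induced libraries 1 to 4 and 23, 17.6, 13.8 and 14.9 CPM in control libraries 1 to 4. Of 10 neuron markers 7 rose and none fell (median 0.68), with summed levels of 1520 to 1810 CPM in Bcl6-induced and 922 to 1140 CPM in control libraries. Sox2, listed here as a radial glia marker, was at 255 CPM in Bcl6-induced and 257 CPM in control libraries and was not called (log2 fold change -0.01). The other radial glia markers not called were Pax6 (-0.45), Vim (-0.29), Hes1 (-0.11), Gli3 (-0.06) and Tnc (0.11). Among the neuron markers Stmn2 (-0.02), Gap43 (0.48) and Nefl (0.70) were not called. The part of the cell type markers in the levels of Phgdh, Psat1 and Trib3 was not tested. The mean log2 level of the radial glia markers, against the control mean, was -1.26, -1.19, -0.47 and -0.45 in Bcl6-induced libraries 1 to 4. Among them Hes5, and Fabp7 at 9.47, 14, 76.6 and 87.4 CPM in Bcl6-induced libraries 1 to 4, against 214, 185, 146 and 174 CPM in control libraries 1 to 4, were far lower in Bcl6-induced libraries 1 and 2 than in 3 and 4. Nes was at 153, 152, 217 and 235 CPM and Vim at 465, 485, 637 and 608 CPM in Bcl6-induced libraries 1 to 4. Pax6, Gli3 and Prom1 were likewise lower in Bcl6-induced libraries 1 and 2 than in 3 and 4. Slc1a3, at 86.5, 83.8, 89.4 and 86.6 CPM in Bcl6-induced libraries and 132, 142, 163 and 128 CPM in control libraries, was level over the 4 Bcl6-induced libraries. Sox2, Hes1, Tnc and Pla2g7 did not show this step either, so it was shared by most but not all of the 12 markers. The serine genes were at -0.34, -0.34, -0.23 and -0.30 in the 4 Bcl6-induced libraries.

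The label of the cells as cortical progenitors was checked against markers as well. Of 4 cortical markers analysed, Lhx2 rose (11.7 and 5.45 CPM), Otx2 fell (161 and 218 CPM), Emx2 was at 3.58 and 4.47 CPM and Otx1 at 13.1 and 17.4 CPM in Bcl6-induced and control libraries, while Emx1 was not analysed here. Pluripotency markers were well above 0 in both groups, with Pou5f1 at 443 and 538 CPM and summed levels of 8 markers of 1860 to 2200 CPM in Bcl6-induced and 1980 to 2220 CPM in control libraries, and 4 of the 8 rose and 1 fell. Of 6 mesendoderm markers 2 rose (T and Eomes), at summed levels of 150 to 159 and 87.5 to 108 CPM. None of 6 fibroblast markers was called in limma or limma-voom (4 at an unadjusted p under 0.05 in limma), at summed levels of 540 to 655 CPM in Bcl6-induced and 498 to 645 CPM in control libraries. Neither the 1 astrocyte marker nor the 2 oligodendrocyte precursor markers analysed were called in limma or limma-voom (1 of each list at an unadjusted p under 0.05 in limma). Markers of several cell types were thus read in both groups, and which cells carried the changes in Phgdh, Psat1 and Trib3 was not measured.

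**Figure D4:**
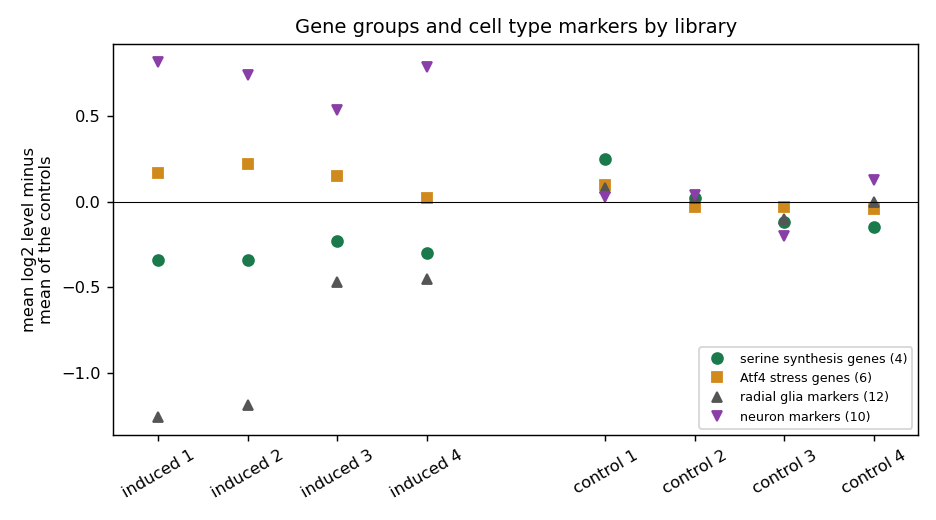
Mean log2 level of the 4 serine genes (green circles), 6 stress genes (orange squares), 12 radial glia markers (grey triangles) and 10 neuron markers (purple triangles) in each library, minus the mean of the 4 controls (vertical axis, log2 units). The serine genes lie between -0.34 and -0.23 in the Bcl6-induced libraries, while the radial glia markers differ between libraries 1 and 2 (-1.26 and -1.19) and libraries 3 and 4 (-0.47 and -0.45). The step is seen in Hes5, Fabp7, Nes, Vim, Pax6, Gli3 and Prom1 and not in Slc1a3, Sox2, Hes1, Tnc and Pla2g7.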

How the data were processed

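Libraries of poly(A) RNA from 8 cultures were prepared with a TruSeq stranded chemistry, per the labels' protocols. STAR 2.5.3a, HTSeq 0.9.1, edgeR 3.20.1 and the build mm10 are named without role or order, per the submitters' processing notes; strand use in counting is not given in the sources used here. The authors deposited 1 table of 14954 genes whose values are a score: gene reads scaled to totals of 19933345 to 19963951 per library and written as whole numbers. The deposited CPM columns were broken at the decimal comma (36 cells per line, 24 header names) and served only to align each line, so the CPM printed are the scaled values over their library's total. Means below 15.1 on that scale do not occur, so weaker genes cannot be seen.

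Reads recovered from each library's step between values (1.328 to 2.118 per read, with 99.7 to 100.0% of values on it) give the depth; they show counting precision and not separate molecules. Since the values are not counts, limma 3.58.1 in R 4.3.3 was fitted to log2(value + 1), with eBayes trend, 4 against 4, no filter and no block, in place of a count test. Fold changes on that scale understate change in low genes. Limma-voom on recovered reads was added after seeing the data; edgeR and DESeq2 were not run here. P-values measure the spread between differentiations of one line. The labels number the differentiations in both groups without saying that a number is shared.

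The 10 genes, the lists and the markers were chosen with earlier results of these data known. Named were the 10 genes, Bcl6, per list up to 3 called genes with the smallest adjusted p and 2 uncalled genes with the highest level, the 3 profiles closest to Phgdh and to Trib3 (mean value of at least 100), and markers called or near 0. Outside this rule, copies and overlapping genes were named for their position and some markers to check the label; some items that the rule covers are not reported here. Gene models were from GENCODE M21 and promoter windows from RefSeq (GRCm38.p6), which held all 10 genes. Alternatives were pseudocounts of 0.1 and 10, a minimum mean of 100, other scalings, no variance trend, array weights, a replicate block, a length and GC correction, and leaving out each library. The fit was also run on simulated counts, with an outcome not reported here. Their changes were larger than those of the 10 genes, with no length trend and no deviating library. That run thus does not test calls under the conditions of these data.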

Additional observations from a re-analysis of the deposited data

Results flagged for a closer look

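In 5 of 70 groups of 4 libraries (35 named genes in both conditions), 1 library lay far from its 3 fellows by Dixon's gap test at the 95% level, where chance marks about 1 in 20 groups. Phgdh was at 186 CPM in Bcl6-induced library 3, against 168, 170 and 167 CPM in the other Bcl6-induced libraries, and this library was still below every control. Shmt2 was at 183 CPM in control library 1, against 150, 150 and 152 CPM in the other controls. Atic was at 192 CPM in Bcl6-induced library 4, against 225, 225 and 223 CPM in the others of its group. Impact was at 220 CPM in Bcl6-induced library 4, against 271, 272 and 271 CPM. Eprs was at 414 CPM in control library 1, against 445, 450 and 451 CPM. The cause of these deviations was not tested.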

How the results depend on the processing

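Phgdh, Psat1 and Trib3 kept their direction under every alternative run. Psat1 lost its call without a variance trend (-0.38). Shmt2 passed after correction for length and GC content (-0.22), and Sesn2 with a pseudocount of 10 (0.26), a minimum mean of 100 (0.26), array weights (0.25) and voom on recovered reads (0.26). Over all genes 2507 were called with array weights and 1944 after correction for length and GC content. Of the 129 other pathway genes 8 were called, against 1 without a variance trend, 21 with array weights and 18 after correction for length and GC content. With a replicate block for the differentiation number, 827 genes and 2 of the other pathway genes were called. Phgdh, Psat1 and Trib3 stayed called in that limma fit (adjusted p = 0.028, 0.048 and 0.038). The deviations of same-numbered libraries correlated at 0.03, 0.01, -0.03 and 0.37, and those of differently numbered libraries at -0.32 to 0.32. The numbers were not taken as pairs because the labels do not say that a number is shared. These correlations cannot decide it. Leaving out 1 library gave 308 to 1697 genes called, 0 to 4 of the 10 genes, 0 to 16 of the other pathway genes, and log2 fold changes of -0.56 to -0.40 for Phgdh, -0.45 to -0.31 for Psat1, 0.51 to 0.65 for Trib3, -0.02 to 0.10 for Asns and 0.23 to 0.29 for Sesn2. Signs turned for uncalled genes near 0: Asns (-0.02), Gart (-0.01), Nars (-0.04) and Canx (-0.04) with upper quartile scaling, Nars (-0.02) and Canx (-0.02) with median-of-ratios scaling, Eif2s1 (0.03), Hspd1 (0.02) and Hspa9 (0.02) with array weights, and Gart (-0.02), Eif2s1 (0.02), Gcn1 (-0.01), Hspd1 (0.02) and Mtor (-0.08) after correction for length and GC content. Leaving out 1 library gave -0.03 to 0.05 for Nars, -0.07 to 0.02 for Xpot, -0.07 to 0.04 for Eif2s1, -0.06 to 0.04 for Hspd1 and -0.03 to 0.01 for Hspa9. The cause of these moves was not tested. Depth limits Trib3 and Chac1 most, with 61 to 202 reads per library.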
